A study of Bos grunniens with 18 samples.

Results

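The NADPH oxidase subunits described here are 5 genes that were selected by name from the expression table of yak (*Bos grunniens*) whole blood: *CYBB*, *CYBA*, *NCF1*, *NCF4* and *RAC2*. All 5 were present among the 20607 genes of the table, and each name belonged to 1 identifier. The blood came from 6 adult cows aged 4 to 8 years and was sequenced in 18 libraries, 6 for each of 3 stages: anestrus (the Y-A group), estrus (the Y-E group) and pregnancy (the Y-P group). Estrus had been synchronized with a progesterone pessary, PGF2α and GnRH, and the cows were then inseminated. No strain, genotype or day of pregnancy was given in the sources used here, and no cell type was separated from the whole blood before RNA extraction.

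The phagocyte NADPH oxidase is the enzyme with which neutrophils, monocytes and macrophages turn oxygen into superoxide during the respiratory burst. Its catalytic core sits in the membrane as a dimer of gp91phox (*CYBB*) and p22phox (*CYBA*). When the cell is activated, a cytosolic complex that includes p47phox (*NCF1*) and p40phox (*NCF4*) moves to that core together with a Rac GTPase, which is largely *RAC2* in neutrophils. Loss of the core or of a cytosolic subunit is known to cause chronic granulomatous disease.

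In the coordinates of the deposited table, *CYBB* (ENSBGRG00000007179) spans X:114965391-115101668 on the minus strand and *CYBA* (ENSBGRG00000026909) spans 20:35072262-35080018 on the plus strand. *NCF1* (ENSBGRG00000021502) lies at 26:10884917-10906557 on the plus strand. *NCF4* (ENSBGRG00000007944) lies at 5:28909928-28935588 on the minus strand, and *RAC2* (ENSBGRG00000006441) lies on the same chromosome at 5:28474828-28490696 on the plus strand. All 5 are annotated as protein-coding, and the positions cover the whole gene with its introns. No other annotated gene overlapped *CYBB*, *CYBA*, *NCF1* or *NCF4*, while *RAC2* contains 1 small annotated gene on its own strand. In humans *NCF1* has near-identical pseudogenes; whether reads of such copies entered the yak counts was not examined.

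The libraries held 30247267 to 48401076 counts, and every subunit was counted at least 1855 times in every library, so that depth did not limit the values below. Levels are CPM, each gene's counts scaled to a common library total after TMM normalization, and a gene was called changed at an adjusted p under 0.05 over the 14508 genes tested. Hemoglobin complex genes made up between 3.10% and 16.7% of all counts at anestrus and between 0.0272% and 0.376% in pregnancy. At estrus they made up between 0.0899% and 0.713% in 5 libraries and 8.36% in Y-E replicate 6, which stood apart from its stage. Y-A replicate 6 held the lowest CPM of its stage for all 5 subunits, and Y-E replicate 6 held the lowest for 3 of them, so calls of the subunits and counts of the gene lists that change without these libraries are also given without them.

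The subunits were abundant but unequal in level. On the FPKM scale, which divides by exon length and so allows genes to be compared, *CYBA* averaged 631 ± 190 at anestrus, 800 ± 251 at estrus and 570 ± 187 in pregnancy (SD, n = 6). *RAC2* averaged 538 ± 74.3, 701 ± 124 and 751 ± 128 FPKM in the same order. *NCF1* followed with 309 ± 94.9, 423 ± 128 and 364 ± 74.1 FPKM. *CYBB* had 162 ± 22.5, 184 ± 14.4 and 143 ± 30.4 FPKM, and *NCF4* was lowest with 29.5 ± 3.59, 37.8 ± 9.10 and 22.9 ± 4.08 FPKM. The order *RAC2*, *NCF1*, *CYBB*, *NCF4* held in 18 of 18 libraries. *CYBA* and *RAC2* could not be ranked against each other, since *CYBA* was above *RAC2* in 10 of 18 libraries. The FPKM means serve to compare genes and not stages. On log2(FPKM + 1) the median of all genes was 0.19 higher in Y-P than in Y-E. In CPM, *RAC2* averaged 569 at estrus and 535 in pregnancy.

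**Figure D1:**
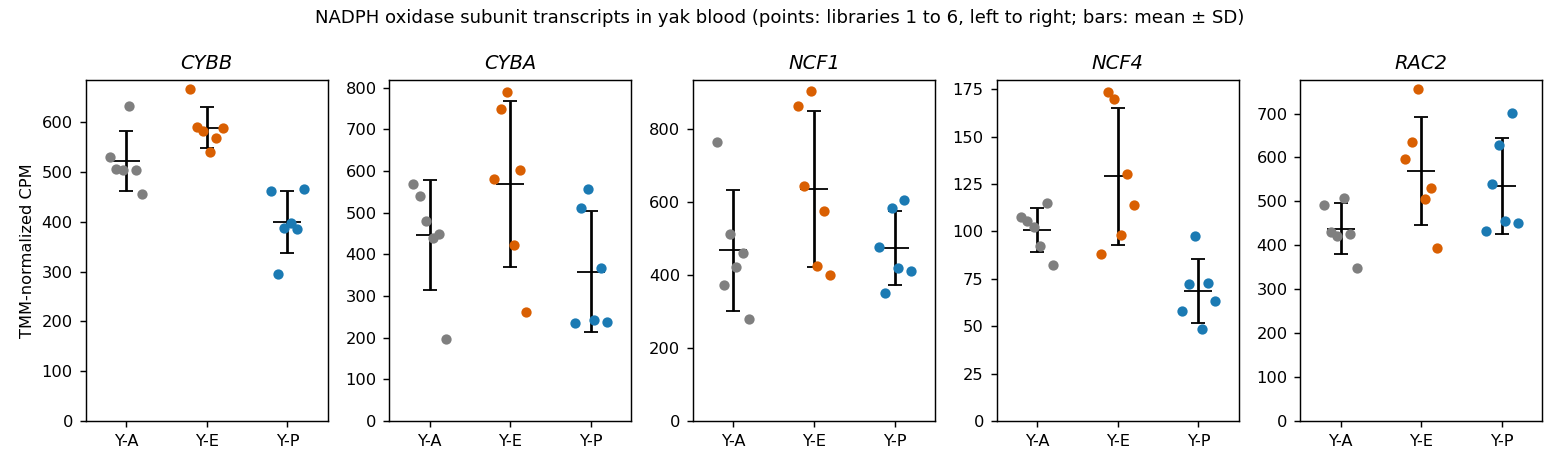
TMM-normalized CPM of the 5 subunits (vertical axes, each from 0 on its own scale) in Y-A, Y-E and Y-P. Points are the libraries 1 to 6 from left to right, and bars are the mean ± SD. For *CYBB* the highest Y-P library, at 466 CPM, lies below the lowest Y-E library, at 541 CPM.

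Among the membrane subunits, *CYBB* was steady within a stage, with a coefficient of variation of 7.13% to 15.7% in the 3 stages. At anestrus its CPM lay between 455 and 633 around a median of 505, at estrus between 541 and 667 around 585, and in pregnancy between 296 and 466 around 393. All 6 Y-P libraries were thus below all 6 Y-E libraries, as held for 3.84% of all tested genes, while the Y-P and Y-A ranges overlapped narrowly, with 4 of 6 Y-P libraries below every Y-A library. *CYBB* was lower in Y-P than in Y-E by a log2 fold change of -0.56 ± 0.11 (SE, edgeR, adjusted p = 0.00282). It was also lower in Y-P than in Y-A, with a log2 fold change of -0.39 ± 0.11 (adjusted p = 0.0445). That second call held in 6 of the 18 fits that each left out 1 library, where the adjusted p ranged from 0.0292 to 0.0905 (it held without Y-A replicate 6, Y-E replicate 1, 4 or 6, or Y-P replicate 1 or 6). With library size only it was -0.22 (adjusted p = 0.261), and with limma on log2(FPKM + 1) -0.19 (adjusted p = 0.326). In both settings the median of all genes was 0.19, against 0.03 with TMM. Relative to that median *CYBB* was at -0.41 with library size only, -0.38 with limma and -0.42 with TMM. In whole blood, fewer cells that carry a transcript and less of it in each cell cannot be told apart, which applies to every difference given here.

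*CYBA* varied more than *CYBB* within each stage, with a coefficient of variation of 29.7% to 40.6%. At anestrus its CPM lay between 196 and 568 around a median of 465, at estrus between 262 and 789 around 591, and in pregnancy between 236 and 557 around 305. The 3 ranges overlapped, and replicate 6 was the lowest library in both Y-A and Y-E. The log2 fold change from Y-E to Y-P was -0.66 ± 0.29 (adjusted p = 0.134), which did not pass. *CYBA* was lower in Y-P than in Y-E for 6 of 6 replicate numbers. How many of all genes reach such a count was not determined, here or for the subunits below. With the number as a block *CYBA* passed (-0.64, adjusted p = 0.0184). It also passed without Y-E replicate 6 and Y-A replicate 6 (-0.82, adjusted p = 0.0295). Between Y-P and Y-A the log2 fold change was -0.31 ± 0.29 (adjusted p = 0.564).

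Among the cytosolic subunits, *NCF4*, whose product binds phosphatidylinositol 3-phosphate on phagosomes, had the largest log2 fold change of the 5 in Y-P vs. Y-E. At anestrus its CPM lay between 82.2 and 115 around a median of 104, at estrus between 88.0 and 174 around 122, and in pregnancy between 48.6 and 97.9 around 67.8. Only Y-P replicate 3, at 97.9 CPM, reached the range of the other stages. *NCF4* was lower in Y-P than in Y-E by a log2 fold change of -0.91 ± 0.18 (adjusted p = 0.00273), and lower for 6 of 6 replicate numbers. Against Y-A the log2 fold change was -0.55 ± 0.18 (adjusted p = 0.0681), and 6 of 6 numbers were lower. This change passed with the replicate number as a block (-0.59, adjusted p = 0.0156) and without Y-P replicate 3 (-0.68, adjusted p = 0.0347).

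*NCF1*, the organizer that carries the cytosolic complex to the membrane, lay between 278 and 764 CPM at anestrus (median 440), between 399 and 902 at estrus (median 609) and between 350 and 605 in pregnancy (median 447). These ranges overlapped in every comparison. The log2 fold change was 0.44 ± 0.23 from Y-A to Y-E (adjusted p = 0.855), with higher values in 6 of 6 replicate numbers, and -0.42 ± 0.23 from Y-E to Y-P (adjusted p = 0.249). From Y-A to Y-P it was 0.02 ± 0.23 (adjusted p = 0.974), and its sign turned without Y-A replicate 2, 4 or 6 or Y-P replicate 3 or 5 (down to -0.12).

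*RAC2*, the hematopoietic Rac GTPase, was not called in any comparison by edgeR or DESeq2. At anestrus its CPM lay between 347 and 508 around a median of 429, at estrus between 394 and 756 around 563, and in pregnancy between 433 and 701 around 498. In both Y-E (4 of 6 libraries) and Y-P (3 of 6) values lay above every Y-A library, and the 3 ranges overlapped. The log2 fold change was 0.38 ± 0.15 from Y-A to Y-E (adjusted p = 0.635) and 0.29 ± 0.15 from Y-A to Y-P (adjusted p = 0.273). With limma on log2(FPKM + 1) the latter was 0.48 (adjusted p = 0.0314), on a scale where the median of all genes had moved by 0.19. From Y-E to Y-P it was -0.09 ± 0.15 (adjusted p = 0.748), a sign that turned with library size only (0.05), with limma (0.10) and without Y-E replicate 3 (0.0082). In that comparison the median of all genes was 0.18 with library size only and 0.19 with limma. Relative to this median *RAC2* stayed below 0, at -0.13 with library size only, -0.09 with limma and -0.13 with TMM. *RAC1*, its widely expressed relative, was lower in Y-P than in Y-E with a log2 fold change of -0.37 ± 0.12 (adjusted p = 0.0432), which did not pass with limma on log2(FPKM + 1) (-0.17, adjusted p = 0.271). *RAC1* overlaps *DAGLB* on the opposite strand.

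**Figure D2:**
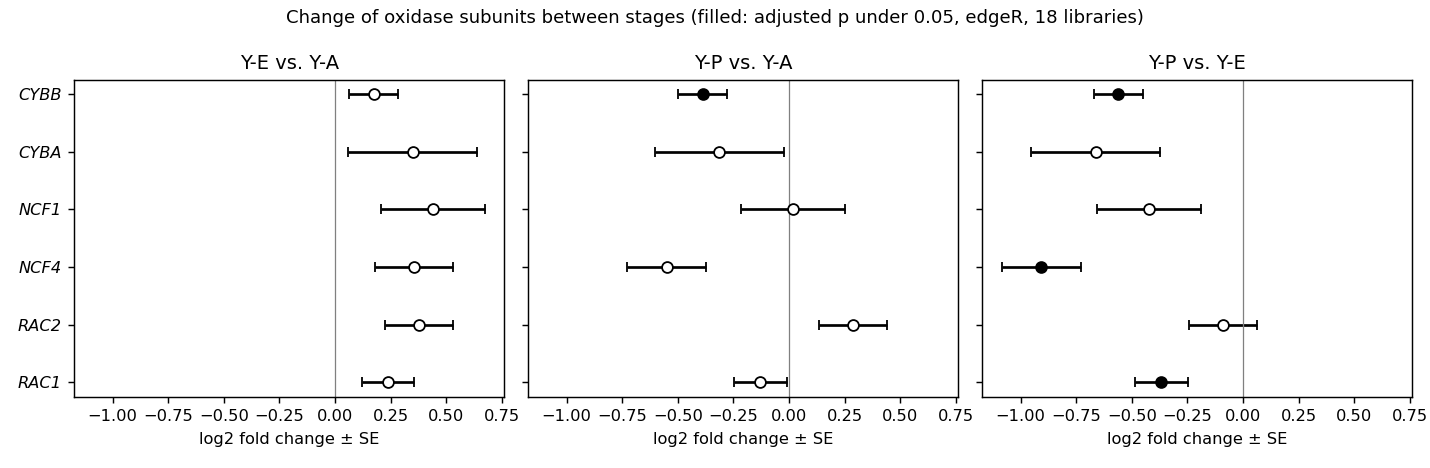
Log2 fold change ± SE (horizontal axes, edgeR over 18 libraries) of the 5 subunits and of *RAC1* in the 3 comparisons. Filled points have an adjusted p under 0.05: *CYBB* alone in Y-P vs. Y-A, and *CYBB*, *NCF4* and *RAC1* in Y-P vs. Y-E.

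Counted over the 5 subunits, 2 were called lower in Y-P than in Y-E and none higher, where 14.4% of all tested genes were called, 8.68% lower and 5.77% higher. All 5 log2 fold changes were below 0, with a median of -0.56 against 0.04 over all tested genes. In Y-P vs. Y-A, 1 of 5 was called, lower, where 5.83% of all genes were called, 3.61% lower and 2.22% higher. The median of the 5 was -0.31 against 0.03 over all genes. In Y-E vs. Y-A none of the 5 was called by edgeR, DESeq2 or limma, where edgeR called 0.0207% of all genes. An unadjusted p under 0.05 in edgeR was found for 1 (*RAC2*), and for 900 of the 14508 genes tested. All 5 log2 fold changes were nonetheless above 0 there, from 0.18 for *CYBB* to 0.44 for *NCF1*. No subunit passed both the adjusted p and a 2-fold change in edgeR, a criterion that 0.0138% of all genes met in Y-E vs. Y-A, 1.43% in Y-P vs. Y-A and 2.67% in Y-P vs. Y-E. The comparisons share their libraries, so the 3 sets of values are not independent. The background shares refer to TMM scaling: with library size only, the share of called genes that were higher rose from 39.9% to 70.3% in Y-P vs. Y-E and from 38.1% to 80.6% in Y-P vs. Y-A.

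Whether the subunits moved by unequal amounts was examined with ratios of FPKM within a library, which do not depend on how libraries are scaled. The *RAC2*/*CYBB* ratio had a median of 3.34 in the Y-A libraries (lowest 3.03, highest 3.69), of 3.71 in the Y-E libraries (2.66 and 5.16) and of 5.50 in the Y-P libraries (3.72 and 7.24). Every Y-P library was above every Y-A library. The mean log2 ratio was 0.67 higher in Y-P than in Y-A (two-sided exact permutation test, p = 0.00216, the smallest that 6 libraries against 6 can give, and adjusted p = 0.0325 over 15 ratio tests). In each of the 12 fits that left out 1 of these libraries the call was lost, with an adjusted p of 0.0649. Smaller groups raise the smallest p that this test can give, and 0.0649 is that smallest p adjusted over the 15 tests. The loss was therefore fixed by the group sizes and does not measure how firm the difference is. Sign flips within the 6 numbers, whose smallest p is 0.03125, gave an adjusted p of 0.117. Without single libraries the difference stayed between 0.58 and 0.77.

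The other 14 ratio tests did not pass. The *NCF1*/*NCF4* ratio came nearest, with a median of 9.78 in the Y-A libraries (highest 16.2) and of 16.8 in the Y-P libraries (highest 19.7), and the groups overlapped. Its mean log2 ratio was 0.64 higher in Y-P (exact permutation p = 0.0195, adjusted p = 0.146). The *CYBA*/*CYBB* ratio of the membrane dimer had medians of 4.21 at anestrus, 4.41 at estrus and 3.56 in pregnancy, and it spread from 2.33 to 7.89 within Y-P alone. Its log2 difference from Y-A to Y-P was 0.06 (exact permutation adjusted p = 0.864).

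**Figure D3:**
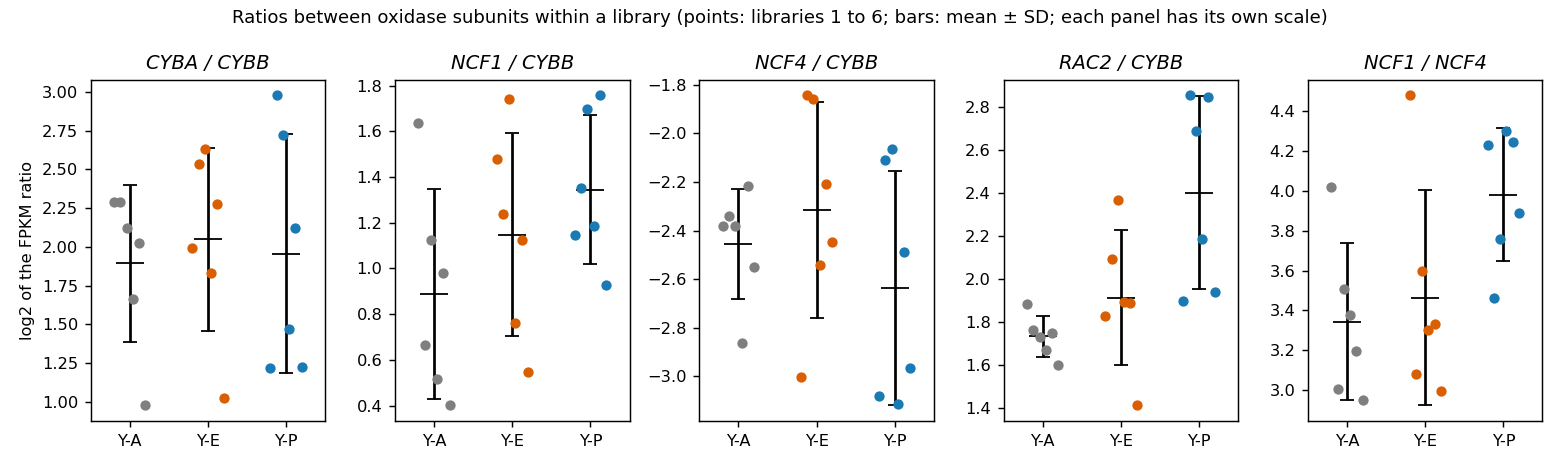
Log2 of the FPKM ratio between subunits within each library (vertical axes, each on its own scale, not from 0) by stage. Points are libraries 1 to 6 and bars the mean ± SD. In the *RAC2*/*CYBB* panel all 6 Y-P libraries lie above all 6 Y-A libraries.

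Within stages, the correlations of *CYBB* with the other 4 subunits were lower than those among these 4, in part narrowly. After the stage mean of log2 CPM was removed, Pearson's r over the 18 libraries was 0.83 between *CYBA* and *RAC2*, 0.74 between *NCF1* and *RAC2*, 0.69 between *CYBA* and *NCF4*, and 0.64 between *CYBA* and *NCF1*. It was 0.60 between *NCF4* and *RAC2* and 0.39 between *NCF1* and *NCF4*. For *CYBB* with the other 4 subunits it ran from -0.22 (*NCF4*) to 0.34 (*NCF1*). Y-A replicate 6, the lowest of its stage for all 5 subunits, was included. These values describe the libraries, whose points share cows, depth and scaling. The membrane partners *CYBB* and *CYBA* had an r of -0.17.

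**Figure D4:**
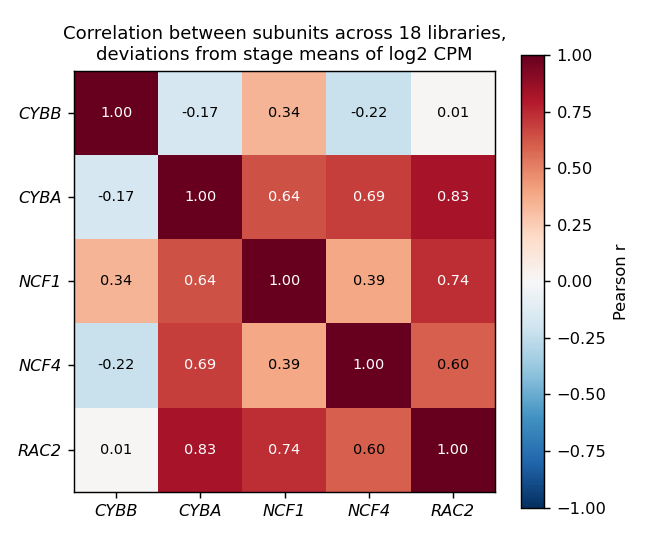
Pearson's r between the 5 subunits, computed over 18 libraries from deviations of log2 CPM from the stage means. The color scale runs from -1 to 1. *CYBA*, *NCF1*, *NCF4* and *RAC2* form the red block with values from 0.39 to 0.83, while the *CYBB* row runs from -0.22 to 0.34.

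The genes whose log2 CPM over the 18 libraries was most like each subunit also differed. For *CYBB* they were *ABHD2* (r = 0.919), a lipid hydrolase, *STK4* (0.910), a Hippo pathway kinase, and *PPP1R3B* (0.900), a glycogen-targeting phosphatase subunit. For *CYBA* they were *PFN1* (0.962), the actin-binding profilin, *UBE2M* (0.961), a NEDD8-conjugating enzyme, and ENSBGRG00000002990 (0.959). *NCF4* was most like *MAPKAPK2* (0.930), a kinase downstream of p38, ENSBGRG00000021179 (0.928) and the docking protein gene *DOK1* (0.908). *RAC2* was most like *IL2RG* (0.927), the common gamma chain of cytokine receptors, the actin gene *ACTB* (0.892) and the exocyst gene *EXOC7* (0.891). *NCF1* had no gene as near, with *SDS* at 0.856, *BCKDK* at 0.835 and *CLPTM1* at 0.827. These likenesses include the differences between stages and are descriptions.

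Of the genes that control oxidase activation, 27 were listed (kinases, phospholipases, PI3K subunits and regulators of Rac), and 25 were in the table and tested. In Y-P vs. Y-E, 13 of the 25 were called lower and none higher, against 8.68% of all genes called lower. The gene lists here were chosen with earlier results of these data known, so setting their counts beside all genes is a description. The median of the list was -0.37 against 0.04 over all genes. *TIAM1*, an exchange factor that loads Rac with GTP, had 122 ± 23.1 CPM in Y-P and 290 ± 58.0 in Y-E (log2 fold change -1.25 ± 0.16, adjusted p = 0.000264). *PREX1*, the Rac exchange factor that responds to PIP3 and G protein subunits, had 660 ± 115 CPM in Y-P and 1165 ± 203 in Y-E (-0.82 ± 0.13, adjusted p = 0.000867). *ARHGAP25*, which in contrast turns Rac off, fell as well (-0.70 ± 0.13, adjusted p = 0.00178). *PIK3CD*, the leukocyte PI3K delta subunit, fell from 1113 ± 262 to 619 ± 69.2 CPM (-0.85 ± 0.16, adjusted p = 0.00194). *TIAM1* and *PIK3CD* overlap other annotated genes.

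The count of 13 was the same without Y-E replicate 6, and without both Y-E replicate 6 and Y-A replicate 6. Limma on log2(FPKM + 1) called 7 lower, and 669 of 11781 genes over the whole table it tested. In Y-P vs. Y-A, 3.61% of all genes were called lower. Of the 25, 3 were called there, all lower: *TIAM1* (-0.85 ± 0.16, adjusted p = 0.00660), the phospholipase D gene *PLD1* (-0.80 ± 0.17, adjusted p = 0.0143) and *ARHGAP25* (-0.45 ± 0.13, adjusted p = 0.0429). With library size only, 2 were called lower and 1 higher, and with limma 2 lower and 2 higher. Over all genes, library size only called 258 lower and 1075 higher of 14508, and limma 224 lower and 1918 higher of 11781. DESeq2 called 5 lower and the replicate block 4 lower, with 0 higher in each. Over all genes these called 864 of 13369 and 801 of 14508 lower. In Y-E vs. Y-A none was called by edgeR or limma. An unadjusted p under 0.05 in edgeR was found for 7 of 25, and for 900 of the 14508 genes tested. DESeq2 called 2 higher, and 56 higher among the 5814 genes to which it gave an adjusted p.

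**Figure D5:**
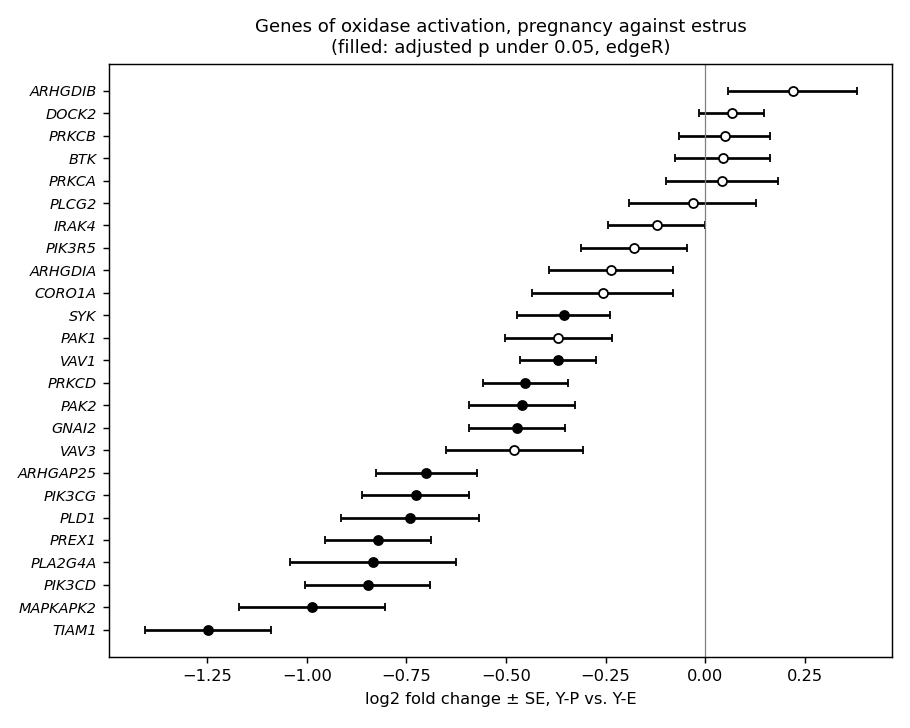
Log2 fold change ± SE (horizontal axis, edgeR) in Y-P vs. Y-E for the 25 tested genes of oxidase activation, sorted from the highest at the top. The 13 filled points have an adjusted p under 0.05, and each of them lies below 0, down to -1.25 for *TIAM1*.

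Of 8 tested transcription factors that regulate phagocyte oxidase genes, 2 were called lower and 2 higher in Y-P vs. Y-E. Over all tested genes, 8.68% were called lower and 5.77% higher in that comparison. *SPI1*, which encodes the myeloid factor PU.1, had 325 ± 27.5 CPM in Y-P and 727 ± 239 in Y-E (-1.16 ± 0.19, adjusted p = 0.000800). *IRF1* was also lower (-0.61 ± 0.19, adjusted p = 0.0393). The repressor gene *GFI1* (0.79 ± 0.23, adjusted p = 0.0291) and *IRF8* (0.42 ± 0.13, adjusted p = 0.0400) were higher, but without Y-E replicate 6 neither of the 2 higher calls was made. In Y-P vs. Y-A, where 3.61% of all genes were called lower, only the erythroid factor *GATA1* was called, lower (-0.81 ± 0.22, adjusted p = 0.0402). Without Y-A replicate 6 none of the 8 was called. The direction of the calls there turned with the scaling: with library size only and with limma, 2 were called higher and none lower, and DESeq2 and edgeR without Y-E replicate 6 each called 1 higher and 1 lower. Over all genes, library size only called 1075 of 14508 higher, limma 1918 of 11781 and DESeq2 717 of 13369. In Y-E vs. Y-A none was called by edgeR over 18 libraries or by limma, with 2 of 8 at an unadjusted p under 0.05, while DESeq2, edgeR without Y-E replicate 6 and the block with 17 libraries each called 1 higher. Over all genes, 900 of 14508 had such a p in edgeR, and these 3 fits called 56 of 5814, 7 of 14653 and 26 of 14653 higher.

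*CYBC1*, the chaperone of the membrane dimer, averaged 22.6 ± 2.32 CPM at anestrus, 22.3 ± 1.92 at estrus and 22.02 ± 4.08 in pregnancy (SD, n = 6). Catalytic and organizer genes of the other NADPH oxidases were scarce: 7 of 10 listed were in the table and 3 passed the filter on low counts. *NOXA1*, an activator of the NOX1 oxidase, averaged 3.50 ± 1.89 CPM at anestrus, 3.81 ± 0.9995 at estrus and 7.34 ± 2.87 in pregnancy (SD, n = 6). Its log2 fold change from Y-A to Y-P was 1.07 ± 0.38 (edgeR, adjusted p = 0.0990). It passed with limma on log2(FPKM + 1) (adjusted p = 0.0171) and with DESeq2 (adjusted p = 0.0432). *NOX1* had 2.22 ± 0.23, 1.92 ± 0.91 and 3.24 ± 1.40 CPM in the 3 stages and was not called by any of these.

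The levels of some blood cell markers also differed between stages. For comparison, edgeR called 8.68% of all tested genes lower and 5.77% higher in Y-P vs. Y-E. In Y-P vs. Y-A it called 3.61% lower and 2.22% higher. Other settings had other backgrounds. Library size only called 1795 of 14508 genes higher in Y-P vs. Y-E and 1075 in Y-P vs. Y-A. Limma on log2(FPKM + 1) called 2473 and 1918 of 11781 higher in the same order. DESeq2 called 1215 of 13769 and 717 of 13369 higher, and the replicate block 1047 and 481 of 14508. Lower calls numbered 1618 and 864 with DESeq2, and 1561 and 801 with the block. The summed CPM of 10 neutrophil marker genes lay between 6148 and 10678 at anestrus (median 6477), between 7682 and 14019 at estrus (median 11615) and between 4110 and 7145 in pregnancy (median 5316). In Y-P vs. Y-E, 6 of 9 tested neutrophil markers were called lower and none higher, among them the G-CSF receptor gene *CSF3R* (-1.09 ± 0.16, adjusted p = 0.000426) and *S100A9* (-1.59 ± 0.39, adjusted p = 0.0115). Without Y-E replicate 6, 7 of 10 were called lower. In Y-P vs. Y-A, 1 of the 9 was called (*LTF*, lower), and without Y-A replicate 6 none was. Limma on log2(FPKM + 1) called 0 there, while DESeq2 and the replicate block each called 2 lower. In Y-E vs. Y-A none was called by edgeR over 18 libraries, with 3 of 9 at an unadjusted p under 0.05, as had 900 of all 14508 genes. DESeq2 called 3 neutrophil markers higher there, and edgeR without Y-E replicate 6 called 2 higher, as did the block with 17 libraries. Over all genes, these called 56 of 5814, 7 of 14653 and 26 of 14653 higher. Of 7 monocyte markers, 1 (*CD68*) was called lower in Y-P vs. Y-E, and their summed medians were 1182, 1376 and 933 CPM from anestrus to pregnancy. All 7 log2 fold changes were below 0 in Y-P vs. Y-E (median -0.51) and in Y-P vs. Y-A (median -0.41, none called). DESeq2 and the replicate block each called 2 lower in Y-P vs. Y-E, and the block called 1 in Y-P vs. Y-A. Of 7 T cell markers, 3 were called higher in Y-P vs. Y-E (*CD3G*, *CD5* and *LCK*), with summed medians of 1031, 1100 and 1440 CPM. Library size only and limma each called 5 T cell markers higher there, and without Y-A replicate 6 edgeR called 2. In Y-P vs. Y-A, 2 T cell markers (*CD3G* and *CD5*) were called higher, against 6 with library size only or limma, 4 with DESeq2 or the replicate block and 1 without Y-A replicate 6. Of 7 B cell markers none was called by edgeR with TMM and no block in any comparison. In Y-P vs. Y-E 2 had an unadjusted p under 0.05, as had 4246 of all 14508 genes. The replicate block called 4 of the 7 higher in Y-P vs. Y-E and 2 in Y-P vs. Y-A, and in Y-P vs. Y-E limma called 2 and DESeq2 and library size only 1 each, all higher. Of 5 eosinophil and basophil markers none was called by edgeR, limma or DESeq2. In Y-P vs. Y-A 1 had an unadjusted p under 0.05 in edgeR, as had 3299 of all 14508 genes. None of the markers in the table was at or under 3 counts in every library. The part of these cell markers in the subunit differences was not tested.

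Number 6 was the library with the lowest summed B cell markers in all 3 stages (504, 419 and 584 CPM) and the highest summed monocyte markers (1758, 2061 and 1511 CPM). In Y-A and Y-E, where replicate 6 had the lowest *CYBA*, *NCF1* and *RAC2*, its summed erythroid markers were 10992 and 4657 CPM against stage medians of 1584 and 148 CPM. Over all tested genes, 3.61% were called lower in Y-P vs. Y-A and 8.68% in Y-P vs. Y-E. Of the 5 erythroid markers, 5 were called lower in Y-P vs. Y-A and 4 in Y-P vs. Y-E. The latter count was 1 without Y-E replicate 6, where the median log2 fold change of the 5 went from -4.41 to -0.93, and 1 with limma. In Y-P vs. Y-A, 3 erythroid markers were called without Y-A replicate 6. In Y-E vs. Y-A none was called by edgeR over 18 libraries without a block, and 3 were called lower without Y-E replicate 6. Of 4 platelet markers 3 were called lower in both Y-P comparisons, and 2 in Y-P vs. Y-A without Y-A replicate 6. Their part in the subunit values was not tested.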

How the data were processed

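Poly(A) RNA of EDTA blood stored in TRIzol LS was sequenced in 18 libraries (3 stages, 6 each), which were grouped by their labelled condition. Per the labels, reads were trimmed with cutadapt 1.9, aligned with HISAT2 2.2.1 and assembled with StringTie 2.1.6, and edgeR and DESeq2 are named without a role. According to the study's methods, FPKM values were estimated with StringTie and ballgown, and the authors deposited them (fragments per exon length and mapped read). The authors also deposited raw counts, and how these were made, including whether strand was used, is not given in the sources used here. The genome is named only by an Ensembl version of *Bos grunniens*.

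The counts were compared between stages with edgeR 4.0.16 under R 4.3.3, using TMM, filterByExpr (minimum count 10), glmQLFit on all 18 libraries with 1 factor (stage), two-sided quasi-likelihood tests and Benjamini-Hochberg adjustment over 14508 genes. A fold threshold of 2 was also applied, as in the study. Alternatives used DESeq2 1.42.0, limma 3.58.1 on log2(FPKM + 1) or log2(FPKM + 0.1) with a mean FPKM of at least 1, other scalings, no filter, the 2 compared stages only, a replicate block and each library left out. FPKM ratios were tested with scipy 1.17.1. The scripts were tested on simulated data.

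Libraries are numbered 1 to 6 within a stage, and the study followed 6 cows. That equal numbers mark the same cow is stated outright by no source. It was assumed only in the replicate block, the sign flips and the counts of replicate numbers. The main fits and the permutation tests treated the libraries as independent. Deviations from the stage means correlated between equal numbers with r from 0.10 to 0.47 (Y-A and Y-E), -0.04 to 0.33 (Y-A and Y-P) and -0.05 to 0.37 (Y-E and Y-P). The subunits and gene lists were chosen with earlier results of these data known. The genes named are the 5 subunits, *CYBC1*, *RAC1* (another gene of this rule is not reported here), at most the 4 genes of a list with the smallest adjusted p among those called (with none called, the 2 most abundant), and the 3 genes most correlated with each subunit. The SDs cover the spread between cows. At the depth of these libraries, 3 counts (the limit that a count of 0 allows) are 0.0620 to 0.0992 CPM.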

Additional observations from a re-analysis of the deposited data

Results flagged for a closer look

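*CYBA* in Y-A replicate 6 was far below the other 5 libraries of its stage. It had 196 CPM, and its gap to the next library was 0.651 of the whole range of the stage, above Dixon's 95% critical value for 6 samples. Without it, Y-A had 495 ± 57.1 CPM (SD, n = 5) in place of 445 ± 132. Of 30 groups of 6 values examined this was the 1 flagged, and chance flags about 1 in 20.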

How the results depend on the processing

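The lower *CYBB* and *NCF4* in Y-P than in Y-E were called in 18 of 18 fits that left out 1 library (-0.61 to -0.49 and -1.03 to -0.80), and *CYBB* lost that call with limma on log2(FPKM + 1) without a filter (-0.38, leaving 1 subunit called). The lower *CYBB* in Y-P than in Y-A was less firm. It lost its call with library size only (-0.22), no low-count filter (-0.38), limma (-0.19 with each of 3 settings), only the 2 stages compared (-0.41), and the replicate block with 17 libraries (-0.40), and ranged from -0.46 to -0.31 without single libraries. *NCF4* gained a call there with DESeq2 (-0.55), the replicate block (-0.59, and -0.59 with 17 libraries) and without Y-P replicate 3 (range -0.68 to -0.47), and *RAC2* gained one with limma (0.48 with either pseudocount). The subunits called in Y-P vs. Y-A thus numbered 0 with library size only, no filter, limma without a filter or only 2 stages, 2 with DESeq2 or the replicate block, and 0 to 1 without single libraries.

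The replicate block also brought a call for *CYBA* in Y-P vs. Y-E (-0.64, and -0.69 with 17 libraries), whose values ran from -0.83 to -0.54 without single libraries, and changed no other call of a subunit in the 15 values. Signs turned for *NCF1* in Y-P vs. Y-A with only 2 stages (-0.0015) and among the leave-one-out values (-0.12 to 0.19), and for *RAC2* in Y-P vs. Y-E with library size only (0.050), limma (0.10 with each of 3 settings) and without libraries (-0.20 to 0.0082). Relative to the median of all genes, *RAC2* kept its sign with library size only (-0.13) and with limma on log2(FPKM + 1) (-0.09). The *RAC2*/*CYBB* difference in Y-P vs. Y-A was 0.67 under the replicate block and 0.58 to 0.77 without single libraries. No call was made in these fits, and without single libraries the group sizes alone kept the adjusted p at 0.0649 (exact permutation test). Leave-one-out ranges crossed 0 for *CYBA*/*CYBB* (-0.030 to 0.36 in Y-E vs. Y-A, -0.14 to 0.21 in Y-P vs. Y-A, -0.30 to 0.055 in Y-P vs. Y-E) and for *NCF1*/*NCF4* in Y-E vs. Y-A (-0.082 to 0.26). Apart from fewer libraries, which raise the smallest p of a ratio test, the cause of these changes was not tested. The fits with 17 libraries and those without both replicates 6 were chosen after seeing the data. Of 750 values under other settings, 668 kept their direction and their side of the threshold (counts: within 1.5 times). Most of the results behind them were not called in the main fit, so this tally says little about the called ones.

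Over all genes, edgeR called 846 in Y-P vs. Y-A, against 1333 with library size only, 1581 with DESeq2, 2142 with limma on log2(FPKM + 1), 1282 with the replicate block and 482 with only 2 stages. In Y-E vs. Y-A it called 3, with 900 at an unadjusted p under 0.05, against 64 with DESeq2 and 14 with the replicate block.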
